A study of Mus musculus with 4 samples.

Results

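The 9 genes described here are the transcription factors that set and carry out the muscle program: the 4 myogenic regulatory factors (*Myod1*, *Myf5*, *Myf6* and *Myog*), the Pax factors of satellite cells (*Pax7* and *Pax3*) and 3 members of the MEF2 family (*Mef2a*, *Mef2c* and *Mef2d*). They were taken by name from the 56748 gene IDs in each deposited count file and all 9 were found. The rule that lists them uses no measured value, but the members and the lists below were chosen with earlier results of these data known. The libraries came from C2C12, an established mouse myoblast line labelled wild type and kept undifferentiated in growth medium with serum. In 2 libraries the cells carried a scrambled shRNA, and in the other 2 a cocktail of 3 shRNAs against *Hnrnpl*, which encodes an RNA-binding protein known for splicing regulation through CA-rich RNA. Cells of both groups were transfected with a plasmid that also expresses eGFP and were selected with puromycin, and each group was 1 selected stable line sampled at different passages. The line and the knockdown therefore cannot be told apart, and p-values measure the spread between passages. The sample titles number the libraries of each group 1 and 2, and in the study's supplement libraries of the same number carry the same date. Each number is called a batch here and holds a scrambled and a knockdown library. Libraries are named by group and batch (scrambled 1 and 2, knockdown 1 and 2).

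The myogenic regulatory factors are basic helix-loop-helix proteins that bind E-boxes (CANNTG) as dimers with E proteins. MYOD1 and MYF5 mark myoblasts that are committed to muscle, myogenin (*Myog*) acts at the onset of differentiation, and MRF4 (*Myf6*) acts later. PAX7 and PAX3 act upstream of them in satellite cells and in the embryo. MEF2 proteins bind an AT-rich site beside E-boxes in many muscle genes and work together with the myogenic regulatory factors, though they are also made outside muscle.

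Counted reads per library ranged from 1229424 to 1676911, which is 56.5% to 57.8% of all reads. Levels are given as CPM, the reads on a gene divided by the counted reads of the library and scaled to a common total. A gene with no reads may still be present at up to 1.79 to 2.44 CPM, the level of 3 reads. Such limits, and the Poisson and Clopper-Pearson 95% intervals below, cover counting error only. *Hnrnpl* itself had 358 and 656 reads in the scrambled libraries against 242 and 258 in the knockdown libraries. It decreased by 0.78 in log2 terms (SE 0.18, adjusted p = 0.0112 in edgeR). Both parametric fits of DESeq2 also gave -0.78, but the call was lost there (adjusted p = 0.0567, Wald, and 0.0670, LRT). The estimate without scrambled 2 was -0.48 (adjusted p = 0.194) and without knockdown 1 it was -0.62 (adjusted p = 0.150). Mitochondrially encoded genes took 5.73% and 5.42% of the reads in scrambled and 7.30% and 6.70% in knockdown. With these genes and *Rn18s* left out of the edgeR fit, the log2 fold change of *Hnrnpl* was -0.78. Those of *Myf5*, *Mef2a* and *Mef2d* were then -0.16, -0.037 and -0.58. The part of the mitochondrial share in the CPM levels below was not tested.

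The sequences that bear on the 9 genes here are CA-rich runs, since such runs are the known binding sequence of hnRNP L, and the E-box and MEF2 motifs through which these factors are known to act on one another's genes. Runs that contain CACACA were counted on the sense strand of 1 canonical transcript per gene (GENCODE vM39, GRCm39). At least 1 run stood in 62.2% of 21630 protein-coding transcripts, at 0.43 runs per kilobase. *Mef2a* held 4, *Myf5* and *Mef2d* 2 each, and *Mef2c* and *Pax7* 1 each. Per kilobase, *Myf5* (0.96) and *Mef2a* (0.725) were above that background. *Mef2d* (0.367), *Pax7* (0.171) and *Mef2c* (0.14) were below it. *Myod1*, *Myf6*, *Myog* and *Pax3* held none in these transcripts. Introns were not searched. For the members with enough reads to be tested, the longest run is shown within 30 bases, with the run in capitals. All 3 windows lie in the 3′ UTR, and each is written along the strand of its gene. The longest run of *Pax7* lies in coding sequence and that of *Mef2c* in the 5′ UTR (not shown).
Myf5, chr10:107319118-107319147, minus strand: gttaaatatgatCACACAgttagccttgta
Mef2a, chr7:66882458-66882487, minus strand: aggtattaggCACACACACcgtggcgagcg
Mef2d, chr3:88078437-88078466, plus strand: tctgtgtctgCACACACACgtatgagttct
The runs of *Mef2a* and *Mef2d* were 9 bases long and that of *Myf5* 6 bases. This is the shortest run counted, so the 2 runs of *Myf5* are equally long and 1 of them is shown.

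Start regions, from 250 bases before to 50 bases after the start of the canonical transcript, were searched on both strands for CANNTG, for the E-box CAGCTG that is part of it, and for the MEF2 consensus. Of the same windows at 21630 protein-coding genes, 70.6% held CANNTG, 14.9% held CAGCTG and 2.97% held the MEF2 consensus. E-boxes were found at *Myod1* (2, of which 1 was CAGCTG), *Myog* (2), *Myf6* (1) and *Pax7* (1, CAGCTG). The MEF2 consensus was found at *Myf6* and *Mef2a*, and none of these letters were found at *Myf5*, *Pax3*, *Mef2c* or *Mef2d*. As examples, 4 of these matches are shown (both MEF2 matches, the *Myod1* CAGCTG and the *Myog* E-box before the start), with the match in capitals and its first base counted from 0 at the transcript start.
Myog, E-box at -103, chr1:134217592-134217621, plus strand: gggaaggggaatCACATGtaatccactgga
Myod1, CAGCTG at -158, chr7:46025700-46025729, plus strand: ttcctagctaggCAGCTGccccagcacaga
Myf6, MEF2 at -28, chr10:107330665-107330694, minus strand: tcagtagctaCTATATATAAagctgggtcg
Mef2a, MEF2 at -2, chr7:67022589-67022618, minus strand: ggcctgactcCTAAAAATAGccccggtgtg
These matches are a description of the genome sequence. Binding was not measured, and *Myf5*, with the most reads of the 9 genes, had no match in its window.

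*Myf5* was the only myogenic regulatory factor with reads in every library. Scrambled 1 and 2 had 157 and 190 reads of it, and knockdown 1 and 2 had 158 and 113. *Myod1* had 1 read in all, in scrambled 2, and *Myf6* had 1 read in all, in knockdown 1. *Myog*, *Pax7* and *Pax3* had no reads in any library. Of the 1076 reads on the 9 genes, 618 (57.4%) were on *Myf5*. In terms of detection, 4 of the 9 genes had reads in every library (*Myf5*, *Mef2a*, *Mef2d* and *Mef2c*), 6 had reads in any library and 3 had none.

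**Figure D1:**
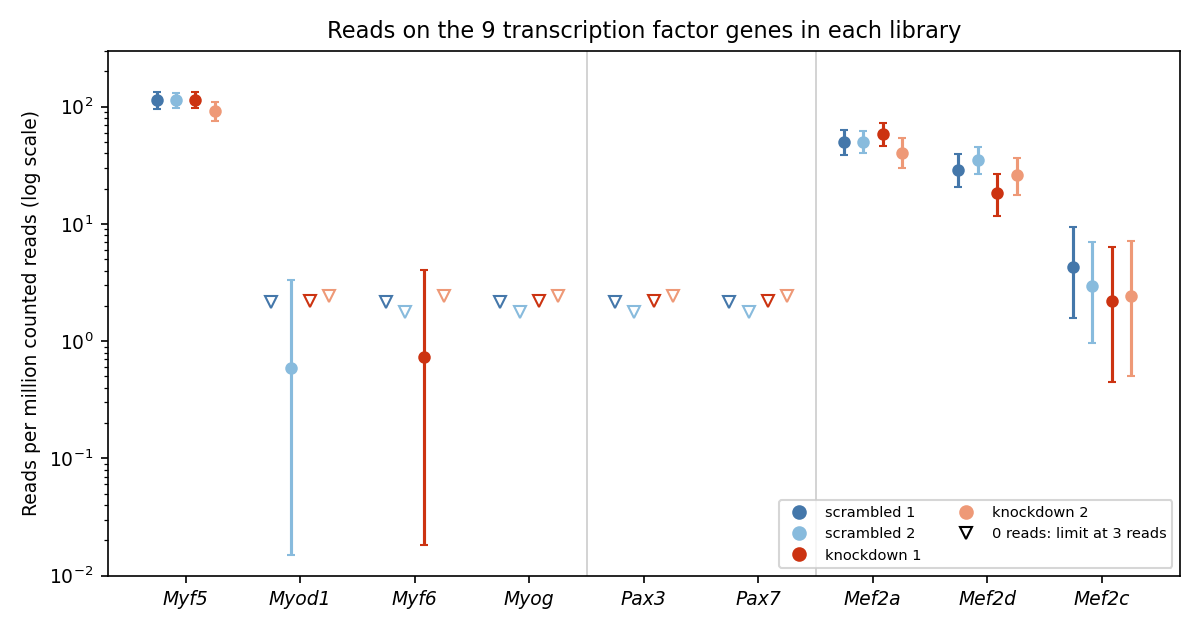
CPM (reads scaled to a common total of counted reads) on a log axis for the 9 genes in each library, with 95% Poisson intervals (counting error only); open triangles mark the 3-read limit of a library with 0 reads. *Myf5*, *Mef2a* and *Mef2d* lie above these limits in every library, *Mef2c* lies near them, and the other 5 genes have at most 1 read.

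The level of *Myf5* (ENSMUSG00000000435.2, chr10:107318769-107321995, minus strand, 3 exons) was 113 CPM in both scrambled libraries, 115 CPM in knockdown 1 and 91.9 CPM in knockdown 2. The 95% Poisson intervals of these levels ran from 75.7 to 134 CPM, and those of all libraries overlapped. Among the 8670 genes that passed the filter on low counts it ranked 1723 by mean normalized count, above 80.1% of them. Its reads were at least 52.3, 63.3, 52.7 and 37.7 times the 3-read limit of *Myog*, in the order scrambled 1, scrambled 2, knockdown 1, knockdown 2. *Myf5* made up 99.4% to 100% of the reads on the 4 myogenic regulatory factors in each library, so the sum of this group is almost the level of 1 gene.

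*Myod1* (ENSMUSG00000009471.5, chr7:46025870-46028526, plus strand) is a classical determination factor of myoblasts, and its 1 read in scrambled 2 corresponds to 0.596 CPM with a 95% Poisson interval from 0.0151 to 3.32 CPM. *Myf6* (ENSMUSG00000035923.5, chr10:107328712-107330656, minus strand) lies beside *Myf5* on chromosome 10, and its 1 read in knockdown 1 corresponds to 0.727 CPM, with an interval from 0.0184 to 4.05 CPM. The levels of the 2 genes cannot be ordered at these counts. For *Myog* (ENSMUSG00000026459.6, chr1:134217707-134220287, plus strand), *Pax7* (ENSMUSG00000028736.14, chr4:139464373-139560839, minus strand) and *Pax3* (ENSMUSG00000004872.16, chr1:78077904-78173771, minus strand), 0 of 5668495 counted reads allows up to 0.529 CPM over all libraries, 0.979 CPM over the scrambled group and 1.15 CPM over the knockdown group. No difference between the groups was detectable for these 5 genes at this depth, and none of them was tested.

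The cells are labelled as myoblasts, and *Myod1*, *Myf5*, *Des*, *Cdh15* and *Itga7* were taken as defining markers. *Myf5*, *Des* and *Cdh15* had reads in every library, *Itga7* had 4 and 6 reads in scrambled and 2 and 3 in knockdown, and *Myod1* was at or near 0. In the reference, the exons of *Myod1*, *Myf6*, *Myog*, *Pax7* and *Pax3* overlap no other annotated gene on either strand, and their whole transcripts and 3′ ends mapped back to their own gene at a mapping quality of 60, as did those of the other members. Reads that overlapped more than 1 gene (16.0% to 16.5% of all reads) or had a low mapping quality (22.7% to 23.8%) were not counted. The annotation release used for counting is not given in the sources used here. Whether reads of the members with at most 1 read, *Myod1* among them, were set aside in this way was not tested. A count near 0 here therefore does not show that the RNA was absent. In bulk RNA, fewer cells that express a gene and less RNA per cell cannot be told apart.

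Of the MEF2 genes, *Mef2a* and *Mef2d* were detected in every library at 25 to 84 reads, and *Mef2c* at 3 to 6 reads. *Mef2a* (ENSMUSG00000030557.18, chr7:66880911-67022606, minus strand) had 69 and 84 reads in scrambled and 80 and 50 in knockdown, or 49.7, 50.1, 58.2 and 40.7 CPM. Knockdown 1 was the highest and knockdown 2 the lowest of the libraries, so the groups overlapped. *Mef2d* (ENSMUSG00000001419.18, chr3:88049185-88079398, plus strand) had 40 and 59 reads in scrambled and 25 and 32 in knockdown, or 28.8, 35.2, 18.2 and 26.0 CPM. Both knockdown libraries were below both scrambled libraries. *Mef2c* (ENSMUSG00000005583.17, chr13:83652064-83815555, plus strand), a MEF2 gene with known roles in heart and skeletal muscle development, had 6 and 5 reads in scrambled and 3 and 3 in knockdown, or 4.32, 2.98, 2.18 and 2.44 CPM. Its Poisson intervals, which spanned 0.450 to 9.41 CPM over the libraries, overlapped one another, and it did not pass the filter and it was not tested.

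Per kilobase of the canonical transcript the order of the levels was *Myf5* (52.0 CPM per kilobase, mean of 4 libraries), *Mef2a* (9.0), *Mef2d* (4.96) and *Mef2c* (0.419), which is the order of the CPM levels too. The level of *Myf5* was 5.78 times that of *Mef2a* per kilobase, and 2.18 times without the division by length. *Mef2a* was 1.81 times *Mef2d* per kilobase and *Mef2d* was 11.9 times *Mef2c*. In every library the order was the same. In direct RNA sequencing a read starts at the 3′ end of a molecule, so that the division by length may not apply in full.

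Within the MEF2 family, *Mef2a* held 60.0% and 56.8% of the reads in scrambled and 74.1% and 58.8% in knockdown. *Mef2d* held 34.8% and 39.9% in scrambled, against 23.1% and 37.6% in knockdown. The groups overlapped for *Mef2d*, and knockdown 1 was the lowest, with a Clopper-Pearson interval from 15.6% to 32.2% that overlapped those of the other libraries. The ratio of *Mef2d* to *Mef2a* reads was 0.580 and 0.702 in scrambled, against 0.313 and 0.640 in knockdown. *Mef2c* held 2.78% to 5.22% of the reads. The summed normalized count of the 3 genes was 120 and 125 in scrambled and 108 and 99.3 in knockdown, lower in both knockdown libraries, and no test was made of the shares or the sum.

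**Figure D2:**
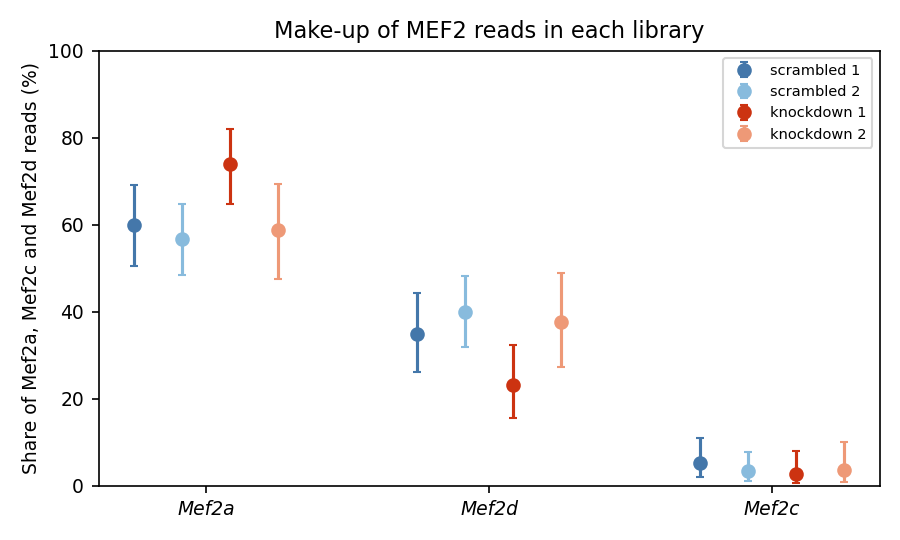
Share of all *Mef2a*, *Mef2c* and *Mef2d* reads held by each gene in each library, in percent, with Clopper-Pearson 95% intervals (counting error only). *Mef2a* holds the largest share in every library, from 56.8% to 74.1%, and knockdown 1 has the highest *Mef2a* and the lowest *Mef2d* share.

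Knockdown was then compared with scrambled in edgeR across all genes tested. To be called, a gene needed an adjusted p under 0.05 (Benjamini-Hochberg over 8670 genes), a mean normalized count above 10 and a log2 fold change beyond 0.5 in either direction. Of the 9 members 3 were tested and 0 were called, where 481 of 8670 genes (5.55%) were called in all. None of the 3 had an unadjusted p under 0.05, where 1894 genes (21.8%) did, and none was called in any of the other 17 settings tried, DESeq2 included. In 2 of the 3, *Myf5* and *Mef2d*, both knockdown libraries were lower than both scrambled libraries in normalized count, and groups set apart in this direction were found in 26.0% of all genes tested. The median log2 fold change of the 3 was -0.16 and that of all genes tested -0.00059.

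*Myf5* had normalized counts of 164 and 160 (scrambled) against 157 and 132 (knockdown), or 162 ± 3.21 against 145 ± 17.9 (SD, n = 2). The values did not overlap after normalization, although they did in CPM, and the gap between scrambled 2 and knockdown 1 was smaller than the gap between the 2 knockdown libraries. Its log2 fold change was -0.16 (SE 0.16, 95% interval -0.50 to 0.18, adjusted p = 0.615 in edgeR), which is 0.896 times the scrambled level with an interval from 0.708 to 1.13. Within batches the log2 ratio was -0.062 in batch 1 and -0.28 in batch 2. The interval of this model runs from 0.708 to 1.13 times, and a change within it in either direction was not resolved. Other settings do not leave out a larger fall. The log2 fold change was -0.40 (SE 0.16) with chromosome medians removed and -0.17 (SE 0.22) in DESeq2 (Wald, local fit).

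*Mef2a*, the most abundant MEF2 gene here, had normalized counts of 72.2 and 70.7 (scrambled) against 79.7 and 58.4 (knockdown). Its means were 71.5 ± 1.11 and 69.1 ± 15.0 (SD, n = 2). The log2 fold change was -0.037 (SE 0.21, 95% interval -0.47 to 0.40, adjusted p = 0.942 in edgeR). The batches went in opposite directions, at 0.14 in batch 1 and -0.27 in batch 2, and the sign of the estimate turned to 0.16 without knockdown 2 and to 0.030 with chromosome medians removed.

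*Mef2d* had normalized counts of 41.9 and 49.6 (scrambled) against 24.9 and 37.4 (knockdown). Its mean was 45.8 ± 5.48 in scrambled and 31.2 ± 8.83 in knockdown (SD, n = 2). The log2 fold change, the largest in size of the 3 tested members, was -0.58 (SE 0.28, 95% interval -1.16 to 0.0061, adjusted p = 0.234 in edgeR, unadjusted p = 0.0522), and both batches were lower, by log2 ratios of -0.75 and -0.41. Leaving out 1 library moved it between -0.88 (without knockdown 2) and -0.30 (without knockdown 1). The unadjusted p was under 0.05 in 7 of 17 alternatives and the adjusted p in none of them (0.148 to 0.996). *Mef2d* did not pass the test, and its interval runs from 0.447 to 1.00 times the scrambled level.

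**Figure D3:**
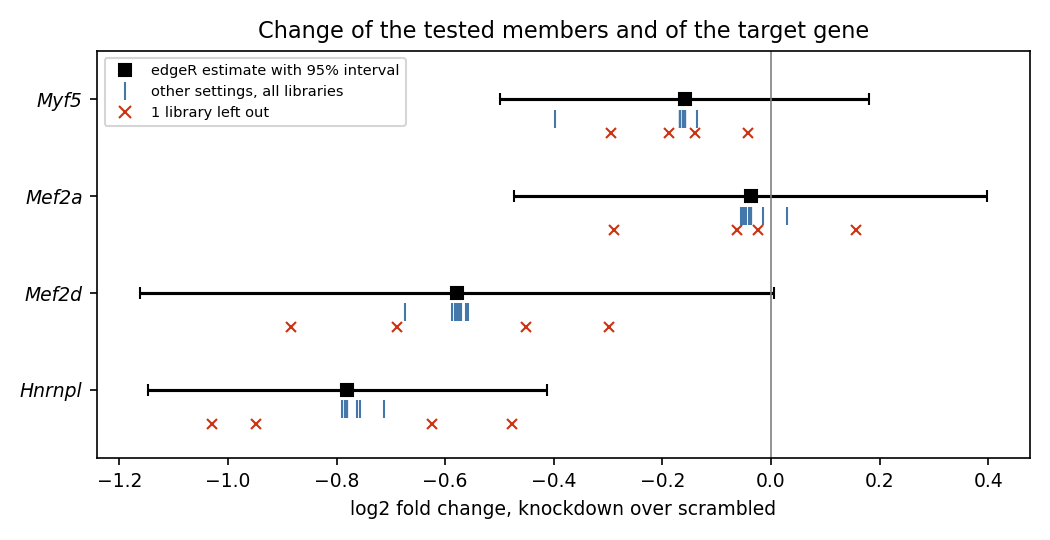
Log2 fold change of knockdown over scrambled for the 3 tested members and *Hnrnpl*: squares with bars are the edgeR estimates with 95% intervals, ticks are other settings with all libraries and crosses leave out 1 library. The intervals of *Myf5*, *Mef2a* and *Mef2d* include 0, that of *Mef2d* by 0.0061, and the interval of *Hnrnpl* does not.

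Neither strand-specific counting nor its absence is stated for these files. In the reference, 6.97% of the exon bases of *Mef2a* overlap *Lysmd4* on the other strand and 9.45% of those of *Mef2d* overlap 1700113A16Rik and *Gm56779*. Whether reads of these partners entered the counts of the MEF2 genes, or reads in the shared bases were set aside, was not tested. The exons of *Myf5* overlap no other gene. The tested genes of the members' chromosomes had a median log2 fold change of 0.24 on chromosome 10 (*Myf5*), 0.097 on chromosome 3 (*Mef2d*) and -0.067 on chromosome 7 (*Mef2a*). With the chromosome median removed, *Myf5* was at -0.40 (unadjusted p = 0.0239, adjusted p = 0.238 in edgeR). *Mef2d* was then at -0.67 (unadjusted p = 0.0258, adjusted p = 0.250 in edgeR). For *Myf5* the removal was the 1 of 17 alternatives with an unadjusted p under 0.05.

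The other genes of the myogenic network were grouped by role. These lists were chosen with earlier results of these data known, so the shares called in them are a description only. E proteins are the dimer partners of the myogenic regulatory factors. All 3 were tested and 0 were called (against 5.55% of all genes tested), with a median log2 fold change of -0.38. *Tcf12* had 127 and 157 against 113 and 77 reads (scrambled first, as in what follows), with a log2 fold change of -0.38 (unadjusted p = 0.0401 in edgeR). *Tcf4* had 60 and 97 against 61 and 32 reads and a log2 fold change of -0.55 (unadjusted p = 0.0359). Neither passed adjustment. *Tcf3*, which gives the E12 and E47 proteins, was at 0.16 with overlapping groups.

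Inhibitors of these factors act in several ways. ID proteins lack a basic region and are known to bind E proteins, which keeps them from the myogenic factors. Of 17 inhibitor genes 4 had no reads and 11 were tested, of which 3 were called higher and 1 lower (5.55% of all genes tested were called), with a median log2 fold change of 0.19. The 3 called higher were *Id1*, *Id2* and *Id3*. *Id2* had 150 and 189 against 378 and 380 reads and rose by 1.37 on the log2 scale (SE 0.15, adjusted p = 1.85e-05 in edgeR). *Id1* had 199 and 212 against 348 and 337 reads and rose by 0.94 (SE 0.15, adjusted p = 0.000935). *Id3* had 211 and 247 against 371 and 293 reads and rose by 0.73 (SE 0.15, adjusted p = 0.00459), a call lost without knockdown 1 (adjusted p = 0.0562) and in the DESeq2 LRT with a parametric fit (0.0519). Knockdown was higher than scrambled in every library for all 3, while *Id4* had no reads.

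The 1 inhibitor called lower was *Hes1*, a repressor downstream of Notch, with 65 and 107 against 43 and 33 reads. It dropped by 0.96 in log2 terms (SE 0.23, adjusted p = 0.0161 in edgeR), and the call was lost without scrambled 2 (adjusted p = 0.157), without knockdown 1 (0.0782), without knockdown 2 (0.0656) and in all 4 DESeq2 configurations (0.108 to 0.402). The most abundant inhibitors that were not called were *Mdfic* (log2 fold change 0.49), *Snai1* (-0.034), *Zeb1* (-0.25) and *Bhlhe40* (0.19).

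Of 21 transcriptional regulators that act upstream of the myogenic genes, 5 had no reads, 11 were tested and 0 were called (against 5.55% of all genes tested), with a median log2 fold change of 0.16. *Tead1*, a partner of the YAP coactivator, had 149 and 183 against 122 and 130 reads and a log2 fold change of -0.19 (95% interval -0.54 to 0.16). Both of its knockdown libraries were lower in normalized count than both scrambled libraries, and it did not pass the test.

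Cofactors and regulators of MEF2 include class II histone deacetylases, which repress MEF2, and the coactivators and kinases that raise its activity. Of 17 genes 2 had no reads, 11 were tested, 0 were called (against 5.55% of all genes tested) and 0 had an unadjusted p under 0.05 (against 21.8%), with a median of -0.0044. *Ep300* (0.015), *Smarca4* (-0.0044), *Srf* (-0.24) and *Mapk14*, the p38 alpha kinase that phosphorylates MEF2 (0.42, 95% interval -0.0043 to 0.85), were the most abundant.

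Of 17 other satellite cell and myoblast genes, 3 had no reads, among them *Calcr* of quiescent satellite cells, and 11 were tested. Those called were 3, all lower (5.55% of all genes tested were called), while the median of the list was 0.0079. *Cdh15* (M-cadherin, an adhesion protein of satellite cells and myoblasts) had 113 and 152 against 25 and 14 reads and dropped by 2.55 in log2 terms (SE 0.24, adjusted p = 2.03e-06 in edgeR). *Ncam1*, a neural and muscle adhesion protein, had 66 and 72 against 20 and 23 reads and fell by 1.47 (SE 0.27, adjusted p = 0.00231 in edgeR). With the parametric fits of DESeq2 its log2 fold change was -1.48, but the call was lost (adjusted p = 0.0770, Wald, and 0.0875, LRT). *Des* (desmin, the muscle intermediate filament) had 373 and 571 against 309 and 242 reads and fell by 0.56 (SE 0.15, adjusted p = 0.0308). The *Des* call was lost with the replicate number as a block (adjusted p = 0.0526), without scrambled 2 (0.297), without knockdown 1 (0.0970), without knockdown 2 (0.117) and with the parametric fits of DESeq2 (0.208 and 0.234). *Itgb1* (-0.20), *Sdc4* (0.034), *Fgfr1* (0.0079) and *Met* (0.53, adjusted p = 0.0599) were not called.

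Differentiation genes that the myogenic regulatory factors and MEF2 act on were mostly without reads. Of 31 genes 16 had none in any library, among them the fusion genes *Mymk* and *Mymx*, creatine kinase *Ckm*, *Ttn* and the myosin heavy chains *Myh1*, *Myh2*, *Myh3* and *Myh8*. Of the 6 tested 1 was called, where 5.55% of all genes tested were. *Chrna1*, the alpha subunit of the muscle acetylcholine receptor, had 255 and 409 against 120 and 78 reads and dropped by 1.53 in log2 terms (SE 0.18, adjusted p = 3.40e-05 in edgeR). Its partner subunit *Chrnb1* was at 0.026 with overlapping groups. *Cdkn1a*, the p21 cell cycle inhibitor, had 426 and 442 against 463 and 320 reads and a log2 fold change of 0.035. *Tnnt2* was at 0.58 (adjusted p = 0.164), where knockdown 2 alone was high at 251 reads, and *Acta1* at -0.44 with 7 to 16 reads.

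**Figure D4:**
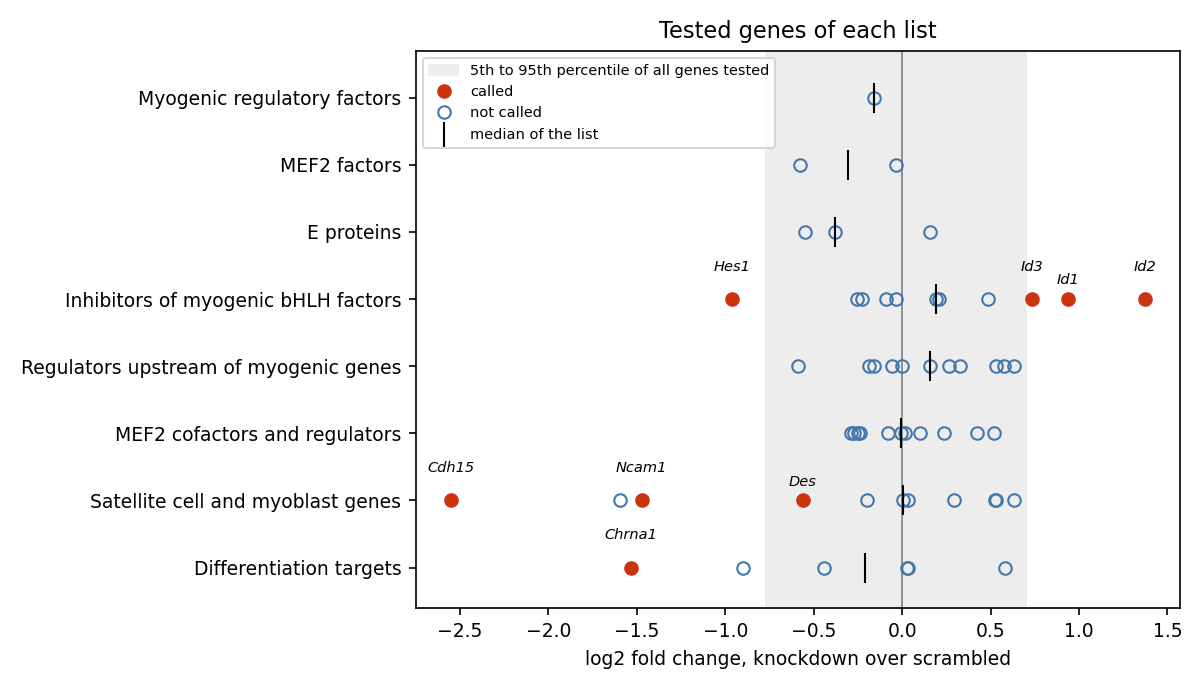
Log2 fold change of knockdown over scrambled for each tested gene, by list: filled points were called, bars mark list medians, and the grey band holds the 5th to 95th percentile of all genes tested. The called genes are *Id1*, *Id2* and *Id3* on the right and *Hes1*, *Cdh15*, *Ncam1*, *Des* and *Chrna1* on the left, and none is a member of the 9 factors.

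The normalized counts of the 8 called genes of these lists, which were picked by the test, were plotted by library beside those of *Myf5* for scale.

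**Figure D5:**
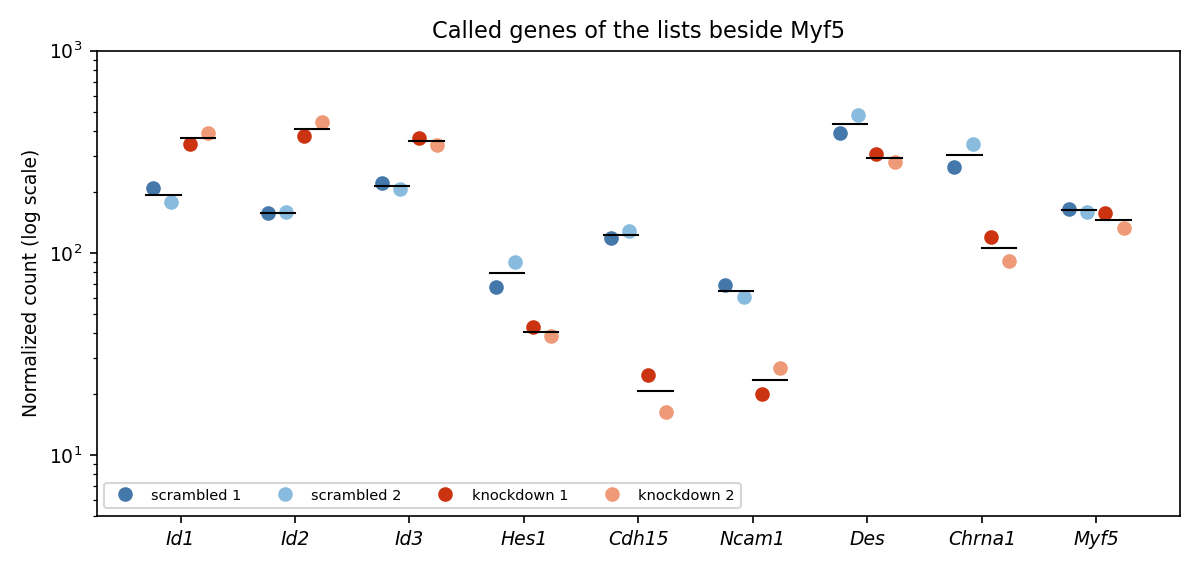
Normalized count on a log axis in each library for the 8 called genes of the lists and for *Myf5*; points are libraries and short lines are group means (n = 2). The 3 *Id* genes are higher and the other 5 called genes lower in both knockdown libraries, and *Myf5* differs by 10.7% between the group means.

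Markers of other cell types were summed per library. Endothelial and neuron markers had at most 1 read per list and library, and macrophage markers summed to 1.79 to 3.25 CPM. Fibroblast markers summed to 16.6 and 24.4 CPM in scrambled and 15.3 and 5.69 CPM in knockdown, with *Dpt*, *Lum* and *Tcf21* at 0 in all libraries (3 of 6 markers). Adipocyte markers summed to 10.1 and 10.1 against 2.91 and 1.63 CPM, most of it *Cebpa*, with *Plin1* at 0. *Cebpa* was at a log2 fold change of -2.12 (adjusted p = 0.0316 in edgeR) and was not called, since its mean normalized count was 7.42. Osteoblast markers summed to 80.0 and 84.1 against 67.7 and 66.7 CPM, almost all of it *Runx2*, with *Sp7*, *Alpl* and *Ibsp* at 0. These 3 sums were lower in both knockdown libraries, as were *Mef2d* and *Cdh15*, and their part in those values was not tested.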

How the data were processed

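Direct RNA reads of 4 C2C12 libraries, 2 scrambled and 2 *Hnrnpl* knockdown, were used. The authors aligned the basecalled reads to GRCm39 (minimap2 2.17) and obtained counts for each gene in HTSeq 0.9.1, with versions as in the submitters' processing notes. The deposited files hold raw counts. The rows of reads not assigned to a gene (42.2% to 43.5% of reads) were left out. The annotation release and the strand setting of the counting are not given in the sources used here. Of 56748 gene IDs, 56017 were found in GENCODE vM39, which gave symbols and positions, and all 9 members matched. Sequences were read from GRCm39 and the GENCODE vM39 transcripts. The scrambled libraries held 1387523 and 1676911 counted reads and the knockdown libraries 1374637 and 1229424.

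The groups were compared in edgeR 4.0.16 under R 4.3.3 (filterByExpr, TMM, quasi-likelihood test), with Benjamini-Hochberg adjustment over all genes tested. The thresholds for a call (adjusted p under 0.05, absolute log2 fold change over 0.5, mean normalized count over 10) are those of the study. A normalized count is a count divided by the TMM-adjusted library size and brought to the mean library size. With 2 libraries per group, the smallest p of an exact permutation test is 0.333. The script was tested on simulated data. Members' transcripts were mapped back to the genome with minimap2 2.31-r1302. As alternatives the fit was repeated with upper quartile or RLE factors, without a filter, with genes of 10 or more counts in each library, with robust and legacy = FALSE fits, 4 configurations of DESeq2 1.42.0, the replicate block, removal of chromosome medians, mitochondrial genes and *Rn18s* left out, and each library left out. Libraries were paired by replicate number, called batch here. Deviations of the libraries numbered 1 had a correlation of 0.0142 over 3711 genes that had 50 or more counts in each library.

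The genes named are the 9 members, *Hnrnpl*, every called gene of each list and up to 4 uncalled genes per list with the largest mean normalized count. Some genes that this rule names are not reported here. Genes named only for having few or no reads, and marker genes, were picked with their values in view. The members and lists were chosen with earlier results of these data known.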

Additional observations from a re-analysis of the deposited data

How the results depend on the processing

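*Myf5* and *Mef2d* kept their negative sign under all 17 alternatives, and no tested member reached an adjusted p under 0.05 in any (0.238 to 1.00 for *Myf5*, 0.606 to 1.00 for *Mef2a* and 0.148 to 0.996 for *Mef2d*). *Mef2a* reversed to 0.030 with chromosome medians removed. With 1 library left out, log2 fold changes ran from -0.29 to -0.043 for *Myf5*, from -0.29 to 0.16 for *Mef2a* (above 0 without knockdown 2), from -0.88 to -0.30 for *Mef2d* and from -1.03 to -0.48 for *Hnrnpl*; the group left with 1 library was then assumed to vary like the other. With the replicate block, pairing libraries by batch, the values were -0.17 for *Myf5* (adjusted p = 0.631 in edgeR), -0.056 for *Mef2a* (0.914) and -0.56 for *Mef2d* (0.251), and 484 genes were called; of the 8 called list genes and *Hnrnpl*, the block ended the call of *Des* and of no other. The parametric fits of DESeq2 put *Hnrnpl* at -0.78 with an adjusted p of 0.0567 (Wald) and 0.0670 (LRT). Genes called, 481 in edgeR, were 228 (Wald, local fit), 115 (Wald, parametric), 222 (LRT, local) and 112 (LRT, parametric) in DESeq2, 285 with chromosome medians removed, and 194 to 433 with 1 library left out, fewest without knockdown 1; the cause was not tested. *Id1*, *Id2*, *Cdh15* and *Chrna1* had an adjusted p under 0.05 in all 17 alternatives, *Id3* and *Ncam1* in 15, *Des* in 11 and *Hes1* in 10. With no filter on low counts *Mef2c* was at -0.65 (adjusted p = 0.762). *Mef2c*, at 3 to 6 reads, did not pass the filter in the comparison reported, and 5 members had at most 1 read.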
